A study of Mus musculus with 10 samples.

Results

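Promoter windows that are partly methylated in saline lung are the subject here, taken from capture bisulfite sequencing (SureSelect Methyl-seq) of lung DNA. A window is 1000 bp long, begins every 500 bp and counts as a promoter window when it overlaps the 1000 bp on either side of a RefSeq start site (NM or NR transcript, GRCm38, the build also named mm10) on chromosomes 1 to 19. Members were chosen by the saline values themselves. Their pooled saline methylation, the methylated calls of the 3 Saline mice as a percentage of all their CpG calls, lay from 20 to under 60%, and every one of the 10 mice had at least 20 calls. The rule kept 16944 of 81307 promoter windows (20.84%), which belong to 9603 genes by the nearest start site. Another 52138 promoter windows lay under 20% and 12225 at 60% or over, and 421759 windows of the whole table reached 20 calls in all mice.

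All animals were female BALB/c mice aged 8 weeks at purchase. The 3 Saline mice were injected with saline only. The 3 OVA mice were sensitized intraperitoneally with 50 µg ovalbumin in alum and challenged intranasally with 25 µg ovalbumin, a model of allergic airway inflammation. The 4 Herb mice had the same ovalbumin course and received ethanol extract of Descurainia sophia seeds (DSE) orally at 200 mg/kg for 7 days. The label Herb was read as DSE from the series title. Whole lung was used, so each value averages over all cell types of the organ, and fully methylated DNA in some cells cannot be told apart from methylation of some CpGs in every cell. Each mouse contributed 306656737 to 410836272 CpG calls over all windows, and a call inside 2 overlapping windows is counted in both. Nothing in the labels names a batch.

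CpG methylation is the addition of a methyl group to the cytosine of a CG pair, and promoters dense in such pairs (CpG islands) are mostly free of it in all tissues. The flanks of an island, called shores, pass from the unmethylated island to the methylated surroundings, and promoters poor in CpGs are often unmethylated only in the cell types that use the gene. Imprinted genes carry methylation on 1 parental copy at their control regions, which gives intermediate levels in every cell type.

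The following 150-base stretches show what such windows look like. Each is the stretch richest in CpGs that lies outside annotated RefSeq exons and, where the window holds the start site, upstream of it (GRCm38, written 5′ to 3′ on the strand of the gene, CpGs in capitals). Repeat sequence was not left out of this choice, so a stretch, that of Fermt3 among them, need not be particular to its gene. Meg3 stands for the imprinted genes. Fermt3 and Cd48 stand for leukocyte genes, Acta2 for smooth muscle and C1qa for macrophages, and Papss1, Rab1a, Jazf1 and Purb are among the widest differences between Herb and OVA mice.
Meg3 (chr12:109540827-109540976, plus strand): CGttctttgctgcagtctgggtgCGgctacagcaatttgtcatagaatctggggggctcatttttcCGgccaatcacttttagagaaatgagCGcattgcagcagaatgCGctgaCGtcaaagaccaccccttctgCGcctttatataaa
Fermt3 (chr19:7019585-7019734, minus strand): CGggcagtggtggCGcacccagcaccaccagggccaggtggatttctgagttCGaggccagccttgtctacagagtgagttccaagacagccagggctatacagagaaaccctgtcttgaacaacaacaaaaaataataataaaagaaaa
Cd48 (chr1:171681673-171681822, plus strand): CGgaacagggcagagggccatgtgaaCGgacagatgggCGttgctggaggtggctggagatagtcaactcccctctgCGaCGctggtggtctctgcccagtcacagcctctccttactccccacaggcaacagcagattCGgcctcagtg
Acta2 (chr19:34255385-34255534, minus strand): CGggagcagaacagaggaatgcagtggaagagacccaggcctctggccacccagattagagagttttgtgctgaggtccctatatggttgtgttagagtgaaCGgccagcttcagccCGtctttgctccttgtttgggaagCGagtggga
C1qa (chr4:136898845-136898994, minus strand): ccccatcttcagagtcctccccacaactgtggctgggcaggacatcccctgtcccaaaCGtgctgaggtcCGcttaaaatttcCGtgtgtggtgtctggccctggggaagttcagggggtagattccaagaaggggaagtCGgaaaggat
Papss1 (chr3:131565506-131565655, plus strand): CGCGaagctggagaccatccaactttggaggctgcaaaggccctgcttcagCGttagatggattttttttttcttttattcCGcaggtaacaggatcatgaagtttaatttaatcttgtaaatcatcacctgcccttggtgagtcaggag
Rab1a (chr11:20200841-20200990, plus strand): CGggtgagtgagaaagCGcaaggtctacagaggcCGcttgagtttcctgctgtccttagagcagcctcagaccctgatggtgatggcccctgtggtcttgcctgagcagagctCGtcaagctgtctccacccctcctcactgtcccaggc
Jazf1 (chr6:53067851-53068000, minus strand): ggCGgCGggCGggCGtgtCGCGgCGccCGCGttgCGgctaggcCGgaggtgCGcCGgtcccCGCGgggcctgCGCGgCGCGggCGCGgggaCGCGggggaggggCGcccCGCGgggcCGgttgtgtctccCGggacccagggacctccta
Purb (chr11:6476501-6476650, minus strand): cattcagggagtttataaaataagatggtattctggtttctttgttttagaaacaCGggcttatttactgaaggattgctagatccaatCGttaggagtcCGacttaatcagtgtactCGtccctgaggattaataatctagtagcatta

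Even at their densest these stretches hold 3 to 7 CpGs, with the exception of the Jazf1 stretch, which holds 28 and lies past the start site, between annotated exons. The whole windows behind them hold 11 CpGs at Fermt3, 18 at Cd48 and at C1qa, 16 at Acta2 and at Papss1, 14 at Rab1a, 12 at Purb, 34 at Meg3 and 47 at Jazf1.

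Partly methylated windows had fewer CpGs and lay farther from the start site than windows under 20%, and were nearer in both to windows at 60% or over. Their median was 16 CpGs per 1000 bp, against 43 in the promoter windows under 20% and 13 in those at 60% or over. The observed number of CpGs over the number expected from base composition had a median of 0.277, against 0.597 and 0.238. Only 26.0% of the members (4405) held a start site, while 53.1% of the windows under 20% and 23.9% of those at 60% or over did. The median distance from window midpoint to start site was 828 bp for members, 467 bp for windows under 20% and 944 bp for those at 60% or over. These are descriptions of sequence and position, which the rule did not use beyond the 1000 bp limit.

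**Figure D1:**
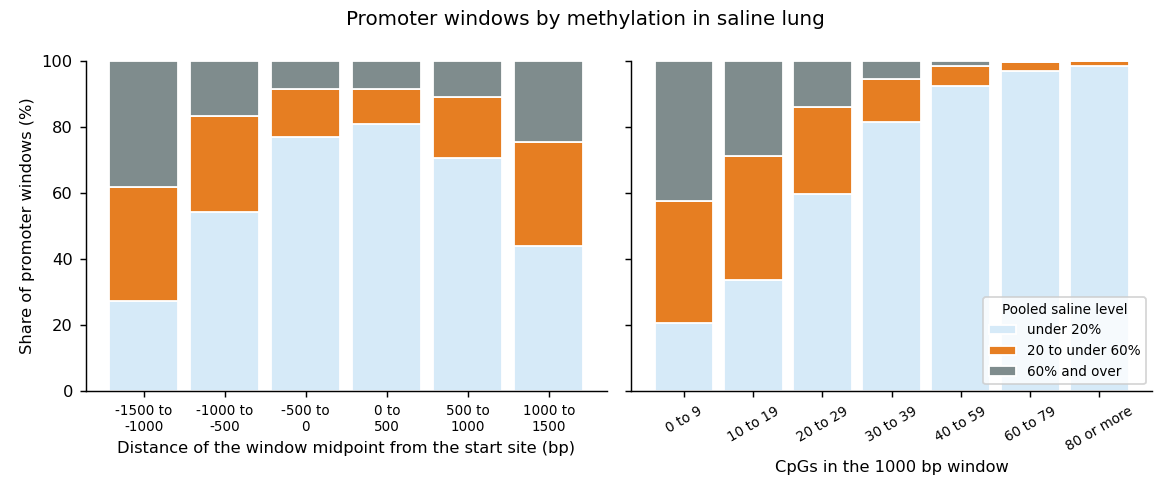
Stacked bars give the share of promoter windows (percent, vertical axis) at each pooled saline level, by distance of the window midpoint from the start site in bp (left) and by the number of CpGs in the window (right). Partly methylated windows (orange) take 10.7% of the windows 0 to 500 bp past the start site and 34.7% of those over 1000 bp before it, and 37.0% of windows with fewer than 10 CpGs against 1.47% of those with 80 or more.

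The share of partly methylated windows changed with both properties, as the plot of saline levels by position and CpG content shows. It was 14.6% in the 500 bp before a start site, 29.2% between 500 and 1000 bp before it and 31.6% beyond 1000 bp past it. With 10 to 19 CpGs in the window it was 37.7%, with 30 to 39 CpGs 12.9%, and with 60 to 79 CpGs 2.69%. Distance and CpG number are themselves linked, and their separate parts were not tested.

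Among members with both adjoining windows measured, the most frequent surroundings were a single step between an unmethylated and a methylated stretch. Both adjoining windows, those that end or begin where the member does, were measured for 6345 members. One neighbour lay under 20% and the other at 60% or over in 44.6% of these, the arrangement of an island shore. In 27.4% a neighbour under 20% was paired with a second partly methylated window. Both neighbours were partly methylated in 6.95%, and 3.37% were isolated dips between 2 windows at 60% or over, of which 61.7% held a start site. The other 10599 members lacked at least 1 measured neighbour and had a median of 14 CpGs. Overlapping or touching members merged into 11297 regions, 7391 of them a single window and the longest 5500 bp.

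The limits of the band cut through a continuous range. Just inside the lower limit lay a window of Farp2 (guanine nucleotide exchange factor), with 17.6, 18.7 and 23.3% in the Saline mice, 18.4, 21.7 and 27.8% in the OVA mice and 31.3, 33.1, 37.7 and 31.1% in the Herb mice. A window of Birc5 (survivin) was also just inside, while windows of Iqgap1 and Colgalt2 were just outside. At the upper limit windows of Glrb and Tescl were just inside and windows of Rgs18 and Ahnak2 just outside, and single Saline mice lay on both sides of the limit in all 4 of them. Of the members, 92.5 to 94.3% were inside the band in a given Saline mouse. Members at 20 to under 30% were the most frequent (5036), and 3732 lay at 50 to under 60%.

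Spread between replicate mice was wider in members than in promoter windows under 20%. The median SD over the 3 Saline mice was 2.85 percentage points in members, 0.457 under 20% and 2.46 at 60% or over. The chi-square per degree of freedom of the calls within groups, which is near 1 for independent calls, had medians of 3.18, 2.17 and 2.15. Several calls come from 1 molecule, so a value above 1 is not a measure of the mice alone. The steadiest members with at least 200 calls per mouse were windows of Pfkm, Vangl1, Gm15918, Fam131a and Sfi1. At Pfkm, the muscle phosphofructokinase of glycolysis, the values were 22.5, 25.3 and 23.6% in the Saline mice, 24.6, 23.6 and 23.2% in the OVA mice and 23.9, 23.3, 24.1 and 22.2% in the Herb mice. The most variable were windows of Grin2d, Rab1a, Jazf1, Lrig3 and Vmn2r29. At Grin2d, a glutamate receptor subunit, they were 27.1, 46.4 and 29.4% in the Saline mice, 15.1, 39.5 and 38.03% in the OVA mice and 72.1, 53.95, 76.3 and 36.7% in the Herb mice. Vmn2r29, a vomeronasal receptor gene, varied most among the Saline mice, with 73.4, 21.03 and 61.5% in the Saline mice, 33.3, 47.4 and 35.04% in the OVA mice and 36.6, 45.04, 39.1 and 40.8% in the Herb mice. It belongs to a family of near-identical copies, where read placement is uncertain.

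Which genes were partly methylated at the start site itself was read from 22 gene lists, using for each gene the measured window nearest to a start site. Over all 18302 genes with a promoter window, that window lay under 20% in 14193, from 20 to under 60% in 2142 (11.7%) and at 60% or over in 1967. All 14 housekeeping genes and 13 of 15 markers of alveolar type 1 cells (the flat gas exchange cells) lay under 20%, as did 8 of 10 of alveolar type 2 cells (the surfactant producers) and 9 of 13 of club and ciliated airway cells. Over all genes the share under 20% was 77.5%. Of 3 goblet cell and mucin genes 1 lay under 20% and 2 at 60% or over. No gene of the hepatocyte list lay under 20%: 4 were partly methylated and 11 at 60% or over. Of the germline list, genes silenced by methylation in body tissues, 29 of 35 were at 60% or over and 4 were partly methylated.

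The partly methylated state was common in 2 other lists. It held for 17 of 31 pan-leukocyte genes (54.8%), genes used by white blood cells in general, and for 23 of 45 imprinted genes (51.1%). Among markers of single blood cell classes it held for 4 of 6 natural killer and cytotoxic genes, 2 of 4 neutrophil genes, 3 of 10 macrophage and monocyte genes, 4 of 14 B and plasma cell genes and 3 of 13 T cell genes. For lung endothelial genes it was 5 of 15 and for smooth muscle 3 of 14. Saline levels chose these windows, so the counts describe the selection and carry no test.

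Imprinted genes had similar levels in the 3 groups. Their 124 member windows averaged 44.1, 44.1 and 44.4% in the Saline mice, 44.6, 44.7 and 45.5% in the OVA mice and 44.2, 45.97, 46.3 and 45.7% in the Herb mice. At Meg3, a maternally expressed long non-coding RNA, the window over the start site (chr12:109540501-109541500, 3027 to 4411 calls per mouse) gave 45.3, 44.3 and 45.5% in the Saline mice, 47.7, 45.4 and 49.3% in the OVA mice and 45.9, 45.8, 44.1 and 45.95% in the Herb mice. All 10 mice lay within 44.1 to 49.3%. At Zrsr1, the values at the start site were 48.2, 51.95 and 42.8% in the Saline mice, 47.4, 53.5 and 50.2% in the OVA mice and 48.8, 52.5, 59.3 and 53.5% in the Herb mice. Igf2, a paternally expressed growth factor, was lower at its start site, with 32.4, 31.2 and 34.6% in the Saline mice, 40.5, 40.4 and 42.5% in the OVA mice and 38.4, 37.7, 36.1 and 27.4% in the Herb mice, and there the OVA mice lay above both other groups. Magel2, a paternally expressed gene of the Prader-Willi region, had 21.4, 22.4 and 23.1% in the Saline mice, 25.9, 27.1 and 24.3% in the OVA mice and 22.6, 24.7, 25.7 and 27.3% in the Herb mice.

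The longest uninterrupted stretches of partly methylated promoter windows, picked after their values were seen, included 3 at imprinted genes (Gnas with 2, and Mest) among the first 12 in order of length (ties by position). The longest of all ran over 5500 bp at Gnasas1 and Gnas (chr2:174294001-174299500), the complex imprinted locus of the stimulatory G protein alpha subunit, with a mean over its 10 windows of 46.5, 48.5 and 49.1% in the Saline mice, 49.5, 45.1 and 48.96% in the OVA mice and 47.8, 48.6, 44.98 and 50.3% in the Herb mice. A second Gnas stretch of 4000 bp averaged 46.5, 46.2 and 42.6% in the Saline mice, 46.3, 43.6 and 47.6% in the OVA mice and 44.8, 47.4, 51.1 and 46.98% in the Herb mice. Mest, a paternally expressed hydrolase, had a stretch of 4000 bp with 52.1, 48.2 and 51.9% in the Saline mice, 47.1, 47.7 and 44.6% in the OVA mice and 46.5, 48.8, 48.5 and 50.7% in the Herb mice. Of the stretches of 5000 bp, one lay at Arhgap9, a GTPase regulator of blood cells, with 48.7, 48.4 and 47.1% in the Saline mice, 44.8, 43.1 and 42.8% in the OVA mice and 45.2, 43.02, 45.2 and 43.8% in the Herb mice. All Saline mice lay above all OVA and Herb mice there, while at the longer Gnas stretch the groups overlapped. At Mest all Saline mice lay above all OVA mice, and the Herb mice overlapped both groups.

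Averaged over all members, methylation was 38.95, 38.3 and 38.5% in the Saline mice, 39.03, 40.4 and 40.5% in the OVA mice and 39.9, 41.4, 40.8 and 40.8% in the Herb mice. The group means were 38.6 ± 0.335% in Saline (SD, n = 3), 40.0 ± 0.806% in OVA (n = 3) and 40.7 ± 0.599% in Herb (n = 4). OVA mouse 1 lay beside Saline mouse 1 and apart from the other OVA mice, and the OVA and Herb ranges overlapped. Saline values chose the members, so a distance of the other groups from Saline is not a finding. Over all 421759 windows the group means were 51.2, 52.4 and 52.3%. Members with the start site inside gave 37.6% in Saline, 38.9% in OVA and 39.8% in Herb.

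**Figure D2:**
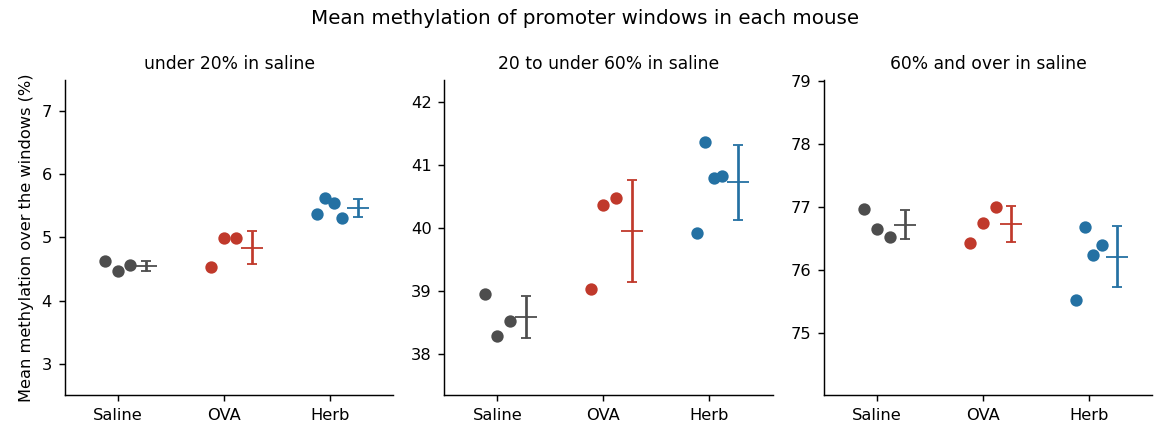
Mean methylation in percent (vertical axes, each spanning 5 percentage points at a different level) over the promoter windows under 20%, from 20 to under 60% and at 60% or over in pooled saline DNA. Points are mice, and the bar beside them gives the group mean and SD; in the middle panel OVA mouse 1 (39.0%) lies with the Saline mice, and in the left panel all 4 Herb mice (5.31 to 5.62%) lie above all OVA mice (4.54 to 4.998%).

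The comparison of Herb with OVA mice used no Saline value and asks which partly methylated promoters differ when DSE is added to the ovalbumin course. Each window was tested with a logistic model of the pooled calls of each group (likelihood ratio test, Benjamini-Hochberg adjustment over all 421759 windows) and called at an adjusted p under 0.01 with at least 10 percentage points. In Herb mice 461 members (2.72%) were called higher and 139 (0.82%) lower. Over all windows tested, 0.888% were called higher and 0.699% lower, so higher calls took a larger share of members than of the table as a whole and lower calls nearly the same share. Higher calls fell on 444 genes and lower calls on 133. The test treats calls as independent and does not use the spread between mice.

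With the spread between mice in the model the counts were smaller. An F test with overdispersion called 0 members in either direction after adjustment. Its unadjusted p was under 0.05 in 2003 members (11.8%), beside 7.35% of all windows. The limma fit on log2 ratios of methylated to unmethylated calls took its spread from all 3 groups. With an adjusted p under 0.05 and the same 10 points it called 84 members higher and 8 lower. The same rule called 0.158% of all windows higher and 0.0548% lower. Herb and OVA mice did not overlap at 1707 members with Herb higher (10.1%, against 5.67% of all windows) and at 675 with Herb lower (3.98%, against 4.59%). The median difference, Herb minus OVA, was 0.585 percentage points over members and -0.0318 over all windows.

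Among members the median difference between Herb and OVA was larger at higher CpG content. In members with fewer than 10 CpGs the median difference was 0.0307 percentage points, and 76 of 2982 were called higher and 50 lower. With 20 to 29 CpGs it was 0.804 points, with 30 to 39 CpGs 1.66, with 40 to 59 CpGs 1.95, and with 60 or more 2.68. Of those 350 windows with 60 or more CpGs, 83.1% had the higher pooled level in Herb, and 19 were called higher against 1 lower. Their means were 30.9 to 34.1% in single OVA mice and 34.7 to 36.7% in single Herb mice, so the groups did not overlap. Saline mice had 32.02 to 33.08%. Over all promoter windows the order of the medians was another, with 0.365 points at 20 to 29 CpGs, 0.225 at 40 to 59 and 0.114 at 60 or more. The OVA means there were 24.7, 6.85 and 3.25%, which leaves little room for a difference in points. Herb had the higher pooled level in 63.6, 71.4 and 66.9% of these windows, against 48.4% with fewer than 10 CpGs. Promoter windows under 20%, with a median of 43 CpGs, moved the same way, with 4.63, 4.47 and 4.56% in the Saline mice, 4.54, 4.99 and 4.998% in the OVA mice and 5.38, 5.62, 5.54 and 5.31% in the Herb mice. The part of this shift in the members' difference was not tested. Median calls per mouse over members were 639 to 734 in OVA and 697 to 886 in Herb mice. Over windows under 20% they were 1712 to 2174 and 1530 to 2068. Methylation over the pooled calls of all windows was 35.5 to 37.3% in OVA and 38.45 to 39.7% in Herb mice. Whether such library differences have a part was not tested.

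Few windows of the gene lists were called between Herb and OVA mice. Over all members 2.72% were called higher and 0.82% lower, and over all windows 0.888% and 0.699%. Lists of this size hold few calls at such shares, and nothing is read from the low counts. The 78 pan-leukocyte windows had a median difference of 0.292 percentage points with no higher and 1 lower call, a window of Arhgap15. Imprinted windows had 2 higher calls, at Gnas and Sgce, and none lower out of 124. The 18 smooth muscle windows had a median difference of 3.00 points and no call. Endothelial windows (36) had -1.68 points and no call. Among alveolar type 1 genes, Akap5, a kinase anchoring protein, was higher in Herb mice, with 23.9, 25.5 and 22.01% in the Saline mice, 20.1, 24.1 and 24.1% in the OVA mice and 35.3, 33.1, 35.03 and 29.4% in the Herb mice. The groups did not overlap (difference 10.5 points, adjusted p = 7.68e-43, limma adjusted p = 0.0855).

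Windows named next are the widest called differences among those with groups that do not overlap and at least 50 calls in every mouse. At Rab1a, a GTPase of transport from endoplasmic reticulum to Golgi, the window before the start site (chr11:20200001-20201000, 266 to 856 calls per mouse) gave 38.5, 28.6 and 42.1% in the Saline mice, 12.2, 30.8 and 19.2% in the OVA mice and 55.3, 56.6, 62.7 and 54.2% in the Herb mice. Every Herb mouse lay above every other mouse, and the Herb group exceeded OVA by 35.5 points (adjusted p = 2.3e-87, limma adjusted p = 0.0255). At Jazf1, a zinc finger regulator of transcription, the window past the start site (chr6:53067001-53068000) gave 24.6, 27.4 and 32.4% in the Saline mice, 14.3, 20.1 and 20.3% in the OVA mice and 47.96, 46.7, 61.03 and 50.6% in the Herb mice. The difference was 32.7 points (limma adjusted p = 0.0121). Papss1 makes the sulfate donor of the cell. Its window over the start site (chr3:131565501-131566500) gave 27.5, 33.8 and 33.6% in the Saline mice, 16.2, 24.6 and 25% in the OVA mice and 55.5, 51.3, 57.6 and 41.1% in the Herb mice, a difference of 29.3 points (limma adjusted p = 0.0233). In all 3 windows the Herb mice also stood above the Saline mice.

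Ogfod1, a prolyl hydroxylase of a ribosomal protein, showed the same order, with 21.96, 36.1 and 24.7% in the Saline mice, 19.9, 24.4 and 13.7% in the OVA mice and 47.6, 46.2, 53.4 and 45.4% in the Herb mice. Zranb1, a deubiquitinase, gave 15.4, 24.03 and 25.2% in the Saline mice, 9.94, 22.96 and 14.4% in the OVA mice and 52.1, 44.8, 37.1 and 39.3% in the Herb mice. The long non-coding gene 4921504A21Rik gave 26.3, 32.9 and 32.8% in the Saline mice, 22.8, 34.5 and 28.1% in the OVA mice and 53.1, 57.9, 58.3 and 54.02% in the Herb mice. All 3 passed limma (adjusted p = 0.0255, 0.0416 and 0.0174). Nmd3, an export adaptor of the large ribosomal subunit, and Lyrm2, a mitochondrial protein, were called by the likelihood ratio test but not by limma (adjusted p = 0.0666 and 0.352). At Nmd3 the Herb mice ranged from 33.65 to 68.7% and at Lyrm2 from 40.5 to 70.1%.

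Lower values in Herb mice were widest at Dmac1, an assembly factor of mitochondrial complex I, where the window upstream of the start site (chr4:75278501-75279500, 82 to 727 calls per mouse) gave 74.8, 53.9 and 45.3% in the Saline mice, 71.7, 46.7 and 54.9% in the OVA mice and 13.5, 25.6, 17.8 and 26.7% in the Herb mice. Purb, a protein that binds purine-rich single strands, gave 63.5, 53.2 and 49.4% in the Saline mice, 56.6, 52.2 and 52.4% in the OVA mice and 25.2, 28.2, 28.8 and 29.9% in the Herb mice at chr11:6476501-6477500, a fall that passed limma (difference -25.7 points, limma adjusted p = 0.0174). The OVA mice lay inside the Saline range there, and all 4 Herb mice lay within 25.2 to 29.9%. Osgin2 gave 39.7, 35.3 and 37.5% in the Saline mice, 48.5, 36.01 and 51.4% in the OVA mice and 20.7, 20.8, 22.3 and 24.4% in the Herb mice (limma adjusted p = 0.0220). Impdh2, an enzyme of guanine nucleotide synthesis, gave 56.9, 54.9 and 46.5% in the Saline mice, 67.7, 63.2 and 66.3% in the OVA mice and 49.6, 44.9, 41.5 and 45.4% in the Herb mice (limma adjusted p = 0.0282). Dmac1, Kif23 (a kinesin of cytokinesis), Slc26a2 (a sulfate transporter), Wfdc9 and BC016579 did not pass limma, with adjusted p from 0.0784 to 0.337. That the groups do not overlap in these 16 windows is part of their choice. Calls per mouse were uneven in several of them, with 116 to 673 at Nmd3, 196 to 997 at Purb and 313 to 1631 at Osgin2. They were less so at Impdh2 (232 to 430). Whether the mice differ in the CpGs covered was not tested.

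**Figure D3:**
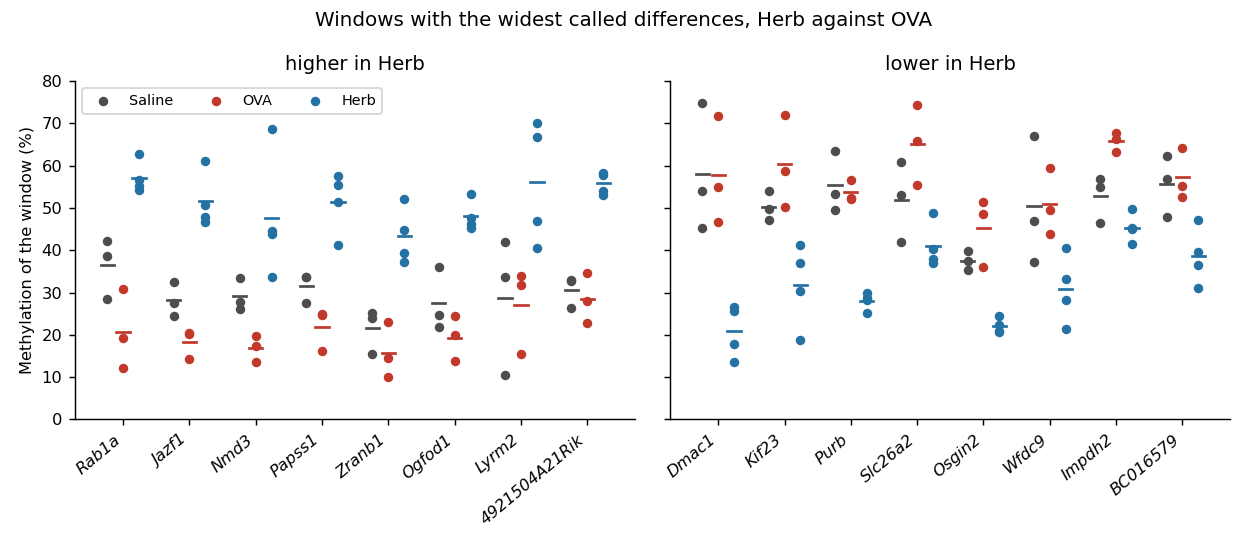
Methylation in percent (vertical axis) of the 8 windows called higher and the 8 called lower in Herb than in OVA mice with the widest differences among windows whose groups do not overlap and that have at least 50 calls in every mouse; points are mice and short lines group means. At Rab1a, Jazf1, Papss1, Ogfod1 and 4921504A21Rik all Herb mice lie above all Saline and OVA mice, and at Dmac1, Purb and Osgin2 all Herb mice lie below them.

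OVA and Saline mice can be compared at the members only as a description, since Saline values chose them. In OVA mice 1346 members (7.94%) were called higher and 588 (3.47%) lower, beside 4.83% and 2.6% of all windows. With limma the counts were 497 and 208, beside 1.76% and 1.18% of all windows. Nothing is read from these shares. To separate choice and comparison, members were also chosen on Saline mouse 1 alone (16891 windows) and OVA mice compared with Saline mice 2 and 3. That gave 1408 higher and 576 lower, with a median difference, OVA minus Saline, of 1.32 percentage points, against 0.790 over all windows.

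As a description only, partly methylated windows of leukocyte genes were lower in OVA mice. The 78 pan-leukocyte windows averaged 46.3, 45.9 and 44.01% in the Saline mice, 38.5, 36.5 and 34.9% in the OVA mice and 38.5, 36.2, 37.3 and 35.02% in the Herb mice, so all Saline mice lay above all others and the OVA and Herb mice overlapped. Of these windows 33 were called lower and 1 higher in OVA, on 17 and 1 of the 25 member genes, and the median difference was -9.34 percentage points, against 1.18 over all members. With members chosen on Saline mouse 1 alone, 29 of 81 windows were called lower against Saline mice 2 and 3. With limma 16 of the 78 were lower. Over all windows 2.6% were called lower, and 1.18% with limma. The gene lists were chosen with earlier results of these data known. These counts, also those with members chosen on 1 Saline mouse, are therefore not independent support. More leukocyte DNA in the lung and less methylation per leukocyte cannot be told apart in whole tissue.

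**Figure D4:**
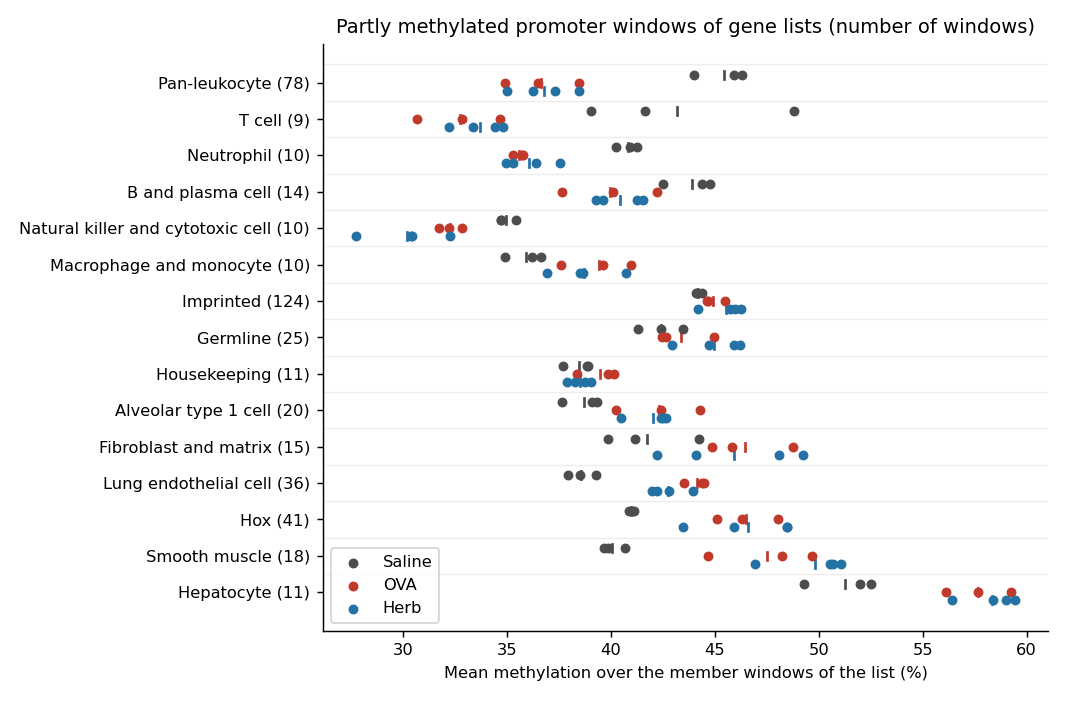
Mean methylation in percent (horizontal axis) over the member windows of 15 of the gene lists, with the number of windows in brackets; points are mice and short lines group means. Pan-leukocyte windows lie at 44.0 to 46.3% in Saline mice and at 34.9 to 38.5% in OVA and Herb mice, while smooth muscle windows lie at 39.7 to 40.7% in Saline and at 44.7 to 51.1% in the others.

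Several leukocyte genes had Saline mice above all OVA mice at the start site. At Fermt3, the integrin activator kindlin-3 of blood cells, the window over the start site (chr19:7019001-7020000) gave 46.6, 57.8 and 47.5% in the Saline mice, 38.9, 35.1 and 42.1% in the OVA mice and 36.3, 42.3, 42.9 and 37.8% in the Herb mice. At Cd48, a surface receptor of leukocytes, it gave 50.5, 54.8 and 46.8% in the Saline mice, 42.8, 36.3 and 40.9% in the OVA mice and 48.8, 38.99, 41.9 and 37.3% in the Herb mice. At Hcls1, an actin regulator of blood cells, the values were 29.6, 28.9 and 28.8% in the Saline mice, 21.9, 21.6 and 19.2% in the OVA mice and 19.1, 21.1, 18.8 and 17.9% in the Herb mice. Saline and OVA mice did not overlap in these windows, and at Hcls1 the difference stayed under 10 points. At Selplg, the P-selectin ligand, the 2 groups overlapped, with 48.5, 47.9 and 45.7% in the Saline mice, 45.7, 34.9 and 32.9% in the OVA mice and 36.6, 32.5, 37.1 and 28.8% in the Herb mice. Every one of the 4 member windows of Itgb2, the beta-2 integrin, was called lower, as were both of Ptprc (CD45), Dock2, Itgal and Laptm5. The exception was Runx3, a transcription factor of lymphocytes, whose 2 windows averaged 26.7% in Saline, 38.3% in OVA and 38.4% in Herb mice, with 1 called higher.

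Markers of single blood cell classes were fewer. T cell windows (9) averaged 41.6, 48.8 and 39.1% in the Saline mice, 34.6, 32.8 and 30.7% in the OVA mice and 33.4, 34.4, 34.8 and 32.2% in the Herb mice, with 4 called lower by the likelihood ratio test and 0 by limma. At Cd6, 1 of those 4, the Saline level was 49.15% as a mean over mice and 37.84% over pooled calls. The list averages weigh every window and mouse alike, so they carry the higher value. At Lck, the first kinase of T cell receptor signalling, the window gave 52.95, 50.5 and 49.2% in the Saline mice, 37.4, 36.05 and 42.2% in the OVA mice and 39.9, 40.2, 42.6 and 33.8% in the Herb mice. B and plasma cell windows (14) had 3 called lower and none higher. The 10 neutrophil windows had a median difference of -5.74 points with no call. Their means were 40.3, 41.2 and 40.9% in the Saline mice, 35.7, 35.8 and 35.3% in the OVA mice and 34.9, 36.4, 37.6 and 35.3% in the Herb mice. Natural killer and cytotoxic windows (10) had 1 lower call, at Cd160, with 47.02, 51.8 and 54.2% in the Saline mice, 36.8, 43.9 and 41.1% in the OVA mice and 39.04, 39.5, 44.5 and 32.5% in the Herb mice. The 13 eosinophil, mast cell and basophil windows had 1 lower call.

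Macrophage genes did not follow the pan-leukocyte windows as a group. Of their 10 windows 3 were called higher and none lower. C1qa, a chain of complement C1q made by tissue macrophages, had the clearest pattern, with 19.1, 19.3 and 21.9% in the Saline mice, 36.6, 40.2 and 45.5% in the OVA mice and 34.98, 37.4, 35.9 and 44.8% in the Herb mice at chr4:136898001-136899000. OVA and Herb mice thus lay at 34.98 to 45.5% and Saline mice at 19.1 to 21.9%. Arg1, an arginase of alternatively activated macrophages, gave 22.3, 19.5 and 21.9% in the Saline mice, 29.2, 32.3 and 36.8% in the OVA mice and 24.5, 34.9, 32.6 and 33.6% in the Herb mice. Cd68 gave 50.3, 48.5 and 52.5% in the Saline mice, 43.4, 44.6 and 46.8% in the OVA mice and 44.05, 45.7, 44.9 and 44.6% in the Herb mice, the opposite order. Siglecf, a lectin of alveolar macrophages and eosinophils, gave 53.6, 48.3 and 51.5% in the Saline mice, 53.7, 54.7 and 50.6% in the OVA mice and 49.5, 46.6, 45.1 and 41.8% in the Herb mice, with Herb below OVA in every mouse, a difference of 7.14 points that was under the 10-point threshold.

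Called windows of smooth muscle and endothelial genes were all higher in OVA mice, and other lists had positive median differences too. The median, OVA minus Saline, was 5.74 percentage points over 11 hepatocyte windows, 5.84 over 3 goblet cell windows, 4.56 over 15 fibroblast windows and 4.04 over 28 neuron windows. Smooth muscle windows (18) averaged 39.9, 39.7 and 40.7% in the Saline mice, 44.6, 48.2 and 49.7% in the OVA mice and 46.9, 51.1, 50.5 and 50.7% in the Herb mice, with 7 called higher, none lower and a median difference of 8.34 points. Without OVA mouse 2 the higher calls numbered 1, while OVA mice 1 and 3 both averaged above every Saline mouse. Limma, with all mice, called none. At Acta2, smooth muscle actin, the start site window gave 39.04, 41.98 and 44.99% in the Saline mice, 49.9, 55.5 and 51.5% in the OVA mice and 52.4, 60.5, 50.5 and 60.8% in the Herb mice. At Lmod1, leiomodin of smooth muscle, it gave 24.6, 24.8 and 23.04% in the Saline mice, 33.1, 45.4 and 33.5% in the OVA mice and 34.4, 42.95, 33.97 and 36.3% in the Herb mice. All 3 Acta2 windows and both of Lmod1 and of Kcnmb1 were called higher. The start site windows of Tagln and Myocd differed by -0.546 and 0.266 points, with no call. Endothelial windows (36) averaged 39.3, 38.5 and 37.9% in the Saline mice, 44.5, 44.4 and 43.5% in the OVA mice and 41.95, 42.8, 42.2 and 43.97% in the Herb mice, with 8 called higher and none lower, 4 of them at Aplnr, the apelin receptor, and others at Ramp2, Cldn5 and Tie1. At the start site of Aplnr the values were 32.5, 29.7 and 23.6% in the Saline mice, 42.6, 57.1 and 37.5% in the OVA mice and 40.1, 46.4, 35.5 and 55.3% in the Herb mice. The start site windows of Eng, Tie1 and Tek differed by 0.913, -2.365 and 8.55 points, OVA minus Saline, with no call. With limma 2 endothelial windows were called.

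Hox genes, the positional regulators of the body axis, were under 20% at the window nearest to a start site in 35 of 38 genes. Their 41 member windows averaged 40.99, 41.1 and 40.9% in the Saline mice, 45.1, 48.02 and 46.3% in the OVA mice and 43.5, 48.5, 45.9 and 48.5% in the Herb mice, with 15 called higher and none lower in OVA mice (5 with limma), at Hoxa4, Hoxa5, Hoxa6, Hoxa10, Hoxb2 and Hoxb3. At Hoxb2 the start site window gave 33.1, 36.02 and 32.1% in the Saline mice, 42.5, 46.95 and 46.04% in the OVA mice and 37.1, 44.5, 45.3 and 43.5% in the Herb mice. Hoxa7 and Hoxb1 did not share this, with Hoxb1 at 34.9, 32.4 and 27.6% in the Saline mice, 26.4, 24.6 and 28.1% in the OVA mice and 25.9, 25.6, 28.6 and 30.6% in the Herb mice. Of the 124 imprinted windows 1, at Zrsr1, was called higher and none lower. Housekeeping windows (11) had 1 higher call.

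Genes of T helper responses were mixed, with 3 windows called higher and 2 lower, both at Ifng (interferon gamma), out of 19. Il4, the type 2 cytokine of allergic inflammation, gave 38.3, 39.1 and 39.9% in the Saline mice, 40.5, 44.5 and 44.2% in the OVA mice and 41.5, 45.1, 34.4 and 45.8% in the Herb mice, a difference under 10 points. Ptgdr2, the prostaglandin D2 receptor of type 2 cells, gave 22.9, 25.2 and 22.2% in the Saline mice, 16.5, 18.5 and 25.9% in the OVA mice and 25.2, 25.6, 31.1 and 20.2% in the Herb mice. Stat4 gave 46.3, 39.9 and 45.8% in the Saline mice, 42.2, 28.6 and 45.9% in the OVA mice and 43.8, 37.2, 41.03 and 40% in the Herb mice, with the groups overlapping. At Hopx, a homeodomain gene of alveolar type 1 cells, the start site window gave 29.1, 25.8 and 32.8% in the Saline mice, 26.1, 28.1 and 26.7% in the OVA mice and 23.8, 24.2, 24.1 and 26.7% in the Herb mice, and Saline and OVA mice overlapped. Of its 4 member windows 1 was called higher in OVA than in Saline mice and 1 lower in Herb than in OVA mice, and their mean was 42.9% in Saline, 48.4% in OVA and 42.6% in Herb mice.

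The following windows had the widest OVA increases among called windows with groups that do not overlap and at least 50 calls in every mouse. Without those limits the widest called differences were 42.2 points higher and 31.7 lower. Dab2ip, a Ras GTPase activating protein, gave 25.96, 38.4 and 23.2% in the Saline mice, 49.6, 62.5 and 65.9% in the OVA mice and 54.2, 50.7, 48.1 and 49.6% in the Herb mice at chr2:35692001-35693000. Tmem204, a membrane protein of vessels, gave 27.7, 21.8 and 28.1% in the Saline mice, 55.6, 55.8 and 55.7% in the OVA mice and 42.7, 54.5, 30 and 50.5% in the Herb mice, with the 3 OVA mice nearly identical and the Herb mice spread. Creb3l4, a transcription factor of the endoplasmic reticulum, gave 23.03, 15.7 and 32.7% in the Saline mice, 50.98, 45.6 and 57.2% in the OVA mice and 48.6, 43.1, 39.1 and 45.7% in the Herb mice. Slc1a1, a glutamate transporter, gave 21.3, 21.1 and 27.4% in the Saline mice, 47.5, 43.6 and 52.5% in the OVA mice and 48.2, 47.2, 37.5 and 49.6% in the Herb mice. C730027H18Rik, Togaram2, R3hdm2 and Abr (a regulator of GTPases) completed the 8, with differences of 23.7 to 25.1 points.

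The decreases chosen under the same limits included 2 pan-leukocyte genes, Ptpn6 and Arhgap15. Ptpn6, the phosphatase SHP-1 of leukocytes, gave 59.2, 55.8 and 55.1% in the Saline mice, 39.5, 31.3 and 28.7% in the OVA mice and 51.8, 38.1, 33.7 and 40.3% in the Herb mice at chr6:124732001-124733000. Lpar5, a receptor for lysophosphatidic acid, had the deepest coverage of these windows (1013 to 1610 calls per mouse) and gave 60.6, 60.6 and 56.1% in the Saline mice, 43.4, 36.02 and 37.8% in the OVA mice and 44.95, 38.2, 42.05 and 39.1% in the Herb mice. Arhgef18, a guanine nucleotide exchange factor, gave 49.5, 49.6 and 54.2% in the Saline mice, 33.1, 29.5 and 33.5% in the OVA mice and 39.5, 35.8, 38.01 and 37.5% in the Herb mice. Snx10, a sorting nexin, gave 54.02, 53.6 and 58.4% in the Saline mice, 37.8, 36.4 and 36.5% in the OVA mice and 49.7, 45.2, 46.5 and 42.7% in the Herb mice, with the Herb mice between the other groups and apart from both. Tnfrsf26, Arhgap15 and Acap1 fell by 18.5 to 21.2 points. At Stk38l, a kinase, Saline mouse 2 stood at 67.1% and the other Saline mice at 29.8 and 30.8%. Without that mouse the difference, OVA minus Saline, was -12.89 points in place of -18.94.

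**Figure D5:**
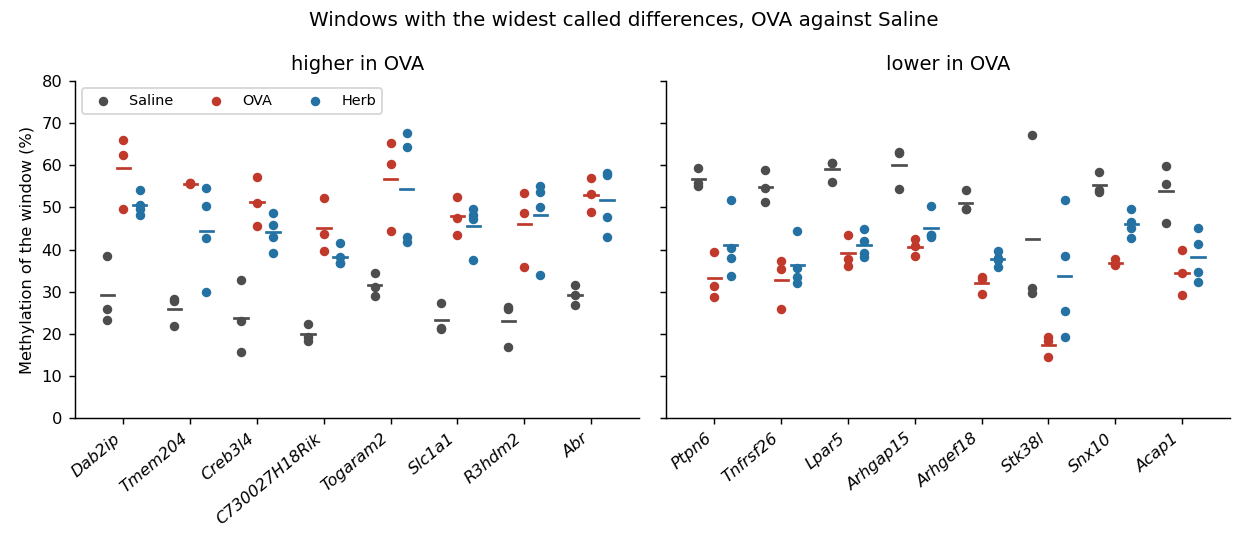
Methylation in percent (vertical axis) of the 8 windows called higher and the 8 called lower in OVA than in Saline mice with the widest differences among windows whose groups do not overlap and that have at least 50 calls in every mouse; points are mice and short lines group means. In the 8 higher windows all OVA and Herb mice lie above all Saline mice, and in the 8 lower windows they lie below, except the Herb mice at Stk38l.

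Herb mice compared with Saline mice gave 1600 members called higher (9.44%) and 648 lower (3.82%), beside 5.02% and 3.09% of all windows, and with limma 935 and 350, beside 2.76% and 1.94%. Saline values chose these members too, and nothing is read from the shares. Pan-leukocyte windows had 37 lower calls and 1 higher, at Runx3. Both comparisons share the Saline mice, and the 3 comparisons are not independent of each other.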

How the data were processed

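Methylation was measured in lung DNA of 10 mice by SureSelect Methyl-seq. The authors deposited counts of CpG calls, methylated and unmethylated, for each window of 1000 bp (step 500 bp) and mouse. Per the study's methods reads were trimmed, aligned with Bismark to mm10 and summed with methylKit, and the submitters' processing notes give cutadapt 1.10, Bismark 0.19.0 and methylKit 1.0.0. The fewest calls of any deposited window were 10. Per-window methylation is methylated over all calls, and bisulfite reads without molecular identifiers are not independent molecules. At a level of 40% the Wilson 95% interval was 36.3 to 44.0% for 614 calls and 21.9 to 61.3% for 20 calls, counting error only.

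Start sites, exons and sequences came from RefSeq on GRCm38.p6. A window was assigned to the gene with the nearest start site. Groups followed the sample labels, which describe separate mice. The members and the gene lists were chosen with earlier results of these data known.

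The main test was a logistic likelihood ratio test on calls pooled per group (scipy 1.17.1, numpy 2.4.6), using the compared groups only, with Benjamini-Hochberg adjustment over 421759 windows. A window was called at an adjusted p under 0.01 and at least 10 percentage points between pooled levels. Beside it stood limma 3.58.1 (R 4.3.3) on log2 of methylated + 1 over unmethylated + 1 calls, with all 3 groups in 1 fit and an adjusted p under 0.05. Both were tested on simulated data. Named windows were the 8 widest calls in each direction among those with groups that do not overlap and at least 50 calls per mouse, up to 4 genes per list nearest to a start site, the 5 lowest and highest SDs over the 10 mice with at least 200 calls, and 2 windows on each side of each limit. Cd6, Runx3, Ifng and other list genes given by counts or means, and the long stretches, were named after their values were seen. Alternatives were another call minimum, an F test with overdispersion, limma, 20 points, a replicate block, windows that do not overlap, other promoter definitions, the mean of the Saline mice for the band, members chosen on 1 Saline mouse and leaving out each mouse. For the lists limma, leaving out each mouse and the choice on 1 Saline mouse were added after seeing the data, as was limma with no threshold on the difference for Herb and OVA. Windows of a few list genes are not reported here.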

Additional observations from a re-analysis of the deposited data

Results flagged for a closer look

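Among the 4 Herb mice, 10 of 150 sets of values had 1 mouse far from the other 3 by Dixon's test, where chance gives about 1 in 20. At Arhgap15, Herb mouse 2 stood at 50.27% and the others at 43.05 to 43.56%. Herb mouse 4 was highest at Hopx (26.73%, others 23.76 to 24.22%) and at Apoa1 (68.48%, others 63.2 to 63.9%). The same mouse was lowest at Etv5 (18.75%, others 21.76 to 22.18%) and at Sfi1 (17.98%, others 19.61 to 19.81%). Herb mouse 1 was highest at Aldh1a1 (47.27%, others 43.89 to 44.39%) and at Vangl1 (20.18%, others 19.18 to 19.28%). At Meg3, Herb mouse 3 was lowest with 44.1%, and the others had 45.77 to 45.95%. Over the alveolar type 1 list Herb mouse 1 averaged 40.49% and the others 42.39 to 42.65%. Over the smooth muscle list it averaged 46.93% and the others 50.54 to 51.06%, and all 4 lay above every Saline mouse.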

How the results depend on the processing

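Most settings could not show a reversal. Counts have no direction, and the named windows were picked for groups that do not overlap. Leaving out a mouse cannot turn such a difference round, and the F test, limma and 20-point settings used the same difference. Members numbered 8468 with windows that do not overlap and 10764 with start sites within 500 bp, and 16873 to 17003 when a Saline mouse was left out. Means over members in Saline, OVA and Herb were 37.66, 38.88 and 39.89% within 500 bp, and 36.52, 37.66 and 39.01% over pooled calls. Leaving out each mouse gave 38.4 to 38.73, 39.7 to 40.42 and 40.51 to 41.0%.

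For OVA against Saline, higher and lower calls were 497 and 208 with limma, 62 and 13 at 20 points, 672 and 299 without overlapping windows, 850 and 391 within 500 bp, and 1147 to 1824 and 557 to 756 leaving out each mouse. For Herb against OVA they were 84 and 8 with limma, 90 and 8 with limma and no threshold on the difference, 51 and 13 at 20 points, 234 and 70 without overlapping windows, and 393 to 539 and 111 to 189 leaving out each mouse, with 71 lower within 500 bp. For Herb against Saline they were 935 and 350 with limma, 75 and 14 at 20 points, 808 and 330 without overlapping windows, 1050 and 425 within 500 bp, and 1453 to 1926 and 559 to 773 leaving out each mouse. The F test with overdispersion called 0 members in each comparison after adjustment, while 3998, 2003 and 5521 had an unadjusted p under 0.05. These were 23.6, 11.8 and 32.6% of members, beside 15.4, 7.35 and 21.1% of all windows. With limma 4844, 1979 and 5694 members had an unadjusted p under 0.05, beside 93996, 41648 and 105473 of all 421759 windows. Why the F test left no call after adjustment was not tested.

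Deviations from the group means had correlations of -0.0416 to 0.104 between same-numbered mice and of -0.0788 to 0.0649 between others. The numbers were not taken to pair mice, though such values cannot exclude it. With a replicate block limma called 0 members in each comparison, and the logistic model called 1381 and 596, 547 and 153, and 1487 and 565.

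Limma called 16 pan-leukocyte windows lower and 5 Hox, 2 endothelial and 0 smooth muscle windows higher in OVA mice. Leaving out each mouse gave 26 to 41, 10 to 17, 6 to 10 and 1 to 10, the 1 being smooth muscle without OVA mouse 2.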
